A study of Homo sapiens with 27 samples.

Results

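The genes FTH1, FTL, TFRC, NCOA4, SLC40A1, GPX4, ACSL4 and AIFM2, which act in iron storage, iron uptake and export, and ferroptosis, were chosen by symbol from the deposited table of normalised expression. Of these 8 genes, 7 have a row among the 13523 genes of the table, and all 7 were among the 13052 genes tested. SLC40A1, which encodes ferroportin, was not analysed here. No cut on their values picked the members, but they were chosen with earlier results of these data known. Each of the 7 had a value of at least 1 in all 25 libraries used, with at least 117 reads.

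RNA was measured in 501mel, a human melanoma cell line with high MITF, as polyadenylated 3′ ends (QuantSeq Forward), so that a read stands for the end of 1 transcript whatever its length. WT cells (no knockout) were untreated, kept in HBSS for 12 h or kept in 250 nM Torin1 for 12 h. TFE3 KO, TFEB KO and TFE3 and TFEB double KO (DKO) cells were kept for 12 h either as controls or in 250 nM Torin1. The labels give 3 libraries to each of these 9 groups.

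HBSS is a saline that holds glucose and lacks amino acids, and Torin1 inhibits the kinase mTOR. TFE3 and TFEB belong, with MITF, to 1 family of transcription factors. The paper states that mTORC1 phosphorylates TFE3 and TFEB when nutrients are plentiful, which holds these factors in the cytoplasm. In the line used here, however, it reports largely nuclear TFE3 without Torin, and low nuclear TFEB that rose with Torin. It describes MITF as mostly nuclear at all times and free of inhibition by mTORC1. The knockouts were made with Cas9 and each is a single clone, so genotype and clone cannot be told apart in any comparison between genotypes. The WT controls are labelled as untreated and the knockout controls as 12 h controls, a difference in handling that also cannot be told apart from genotype. All groups share the line, and all but the WT HBSS group were kept in medium.

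Cells take up iron as transferrin bound to the receptor TFRC, store it in a ferritin shell built of FTH1 and FTL chains, and release it again when NCOA4 carries ferritin to the lysosome. Iron regulatory proteins bind hairpins in the untranslated ends of these transcripts when iron is low, which blocks ferritin translation and keeps the TFRC transcript from decay. Ferroptosis is a form of cell death by iron-dependent lipid peroxidation. ACSL4 loads membranes with the polyunsaturated fatty acids that are oxidised, GPX4 reduces the lipid peroxides, and AIFM2 (FSP1) regenerates a lipid-soluble antioxidant from coenzyme Q.

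The hairpins that iron regulatory proteins bind, called iron-responsive elements, were looked up because they set TFRC, the ferritin chains and SLC40A1 apart from the other members in sequence. The search in the untranslated regions took an unpaired C, a stem of 5 paired bases with at most 1 G-U pair, and the loop CAGUGN with no G in the last place. Among 19061 transcripts of GENCODE (MANE Select, hg38), 9 (0.047%) held this pattern in the 5′ UTR and 61 (0.32%) in the 3′ UTR. Each stretch below is 27 bases of the RNA, and the capitals mark the loop.
SLC40A1, 5′ UTR, chr2:189580662-189580688, minus strand: aacuucagcuaCAGUGUuagcuaaguu
FTH1, 5′ UTR, chr11:61967575-61967601, minus strand: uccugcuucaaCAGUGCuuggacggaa
FTL, 5′ UTR, chr19:48965336-48965362, plus strand: ucuugcuucaaCAGUGUuuggacggaa
TFRC A, 3′ UTR, chr3:196050980-196051006, minus strand: auuaucggaagCAGUGCcuuccauaau
TFRC B, 3′ UTR, chr3:196050576-196050602, minus strand: auuaucgggagCAGUGUcuuccauaau
TFRC C, 3′ UTR, chr3:196050511-196050537, minus strand: uguaucggagaCAGUGAucuccauaug
TFRC D, 3′ UTR, chr3:196050464-196050490, minus strand: auuaucgggaaCAGUGUuucccauaau

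TFRC held 4 matches, all in the 3′ UTR, and FTH1, FTL and SLC40A1 held 1 each in the 5′ UTR. The labels A to D follow the order of these matches along the transcript and are not established names. Elements with another loop or stem were not searched for. The FTH1 and FTL stretches were identical at 25 of 27 bases. No match to these letters was found in NCOA4, ACSL4, GPX4 or AIFM2. In promoters of RefSeq (GRCh38.p14, 250 bases before to 50 after a start site, both strands), the E-box CACGTG was in 7.43% of 27305 windows and CATGTG in 11.23%, and neither was found in the windows of TFRC, SLC40A1, FTL, NCOA4, ACSL4, GPX4 and AIFM2. The promoter of FTH1 was not searched. These matches are descriptions of letters and not of binding.

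In the 25 libraries the depth was 4147050 to 6526392 reads, and 3 reads corresponded to a value of 0.460 to 0.711. The columns for WT HBSS replicate 3 and WT Torin replicate 1 were the same in all 13523 genes and were left out of both groups, which leaves 2 libraries in each of these groups and 3 in the other 7. All 7 melanocytic markers looked at were present, summing to 5123 to 14453 per library. Of 11 markers of keratinocytes, fibroblasts, leukocytes and endothelium, COL1A1 alone had a row, at 0 to 5.06. TFE3 was 23.8 to 24.3 in WT untreated, 5.06 to 7.59 in TFE3 KO control and 5.93 to 6.86 in DKO control. TFEB was 2.34 to 3.96 in WT untreated and 0.750 to 1.66 in TFEB KO control, but it was as low in TFE3 KO control, at 0.177 to 1.56. With HBSS, TFEB was 28.0 and 30.4. In the Torin libraries TFE3 was 17.5 and 20.4 in WT, 9.13 to 14.0 in TFE3 KO, 16.5 to 19.0 in TFEB KO and 6.15 to 8.46 in DKO. TFE3 thus rose with Torin in TFE3 KO (0.68, SE 0.17, limma adjusted p = 0.00102), to a level 1.72-fold below WT Torin. TFEB in the Torin libraries was 4.27 and 5.63 in WT, 1.34 to 2.29 in TFE3 KO, 0.611 to 3.45 in TFEB KO and 0.190 to 0.984 in DKO, and the highest TFEB KO library lay in the WT untreated range. MITF, of the same family, was 719 to 788 in WT untreated and 1392 and 1454 with HBSS. It was lower in DKO control (532 to 596, -0.46, SE 0.06, limma adjusted p = 1.79e-07) and rose with Torin in TFE3 KO (677 to 688 against 843 to 875, 0.33, SE 0.06, limma adjusted p = 1.27e-05), a response above that of WT by 0.38 (SE 0.09, limma adjusted p = 0.0235). The part of TFE3, TFEB and MITF levels in the results below was not tested. Reads from 3′ ends do not show whether a protein was lost.

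Values below are normalised read counts on a counts-per-million (CPM) scale. The log2 fold changes come from limma, fitted to log2(value + 1), with their standard error (SE), and a gene was called at a Benjamini-Hochberg adjusted p under 0.05 over all genes tested. Whether replicates were separate cultures was not given in the sources used here, so p-values measure the spread between these libraries. In RNA from whole cultures, fewer cells of 1 state and less RNA per cell cannot be told apart. Statements that libraries of groups did or did not overlap are descriptions, and the share of all genes so separated was not counted.

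TFRC, the transferrin receptor, had the largest fold changes of the 7 members with treatment. It fell with HBSS, which was given to WT cells only, and with Torin in every genotype. The fall with Torin was larger in TFE3 KO and DKO cells than in WT and TFEB KO cells. Without drug no knockout passed the test for it.

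In WT untreated cells TFRC was 388, 444 and 390. With HBSS it was 232 and 243, and with Torin 182 and 162. The 3 untreated libraries lay above all treated ones, and the HBSS libraries lay above the Torin libraries. TFRC had a log2 fold change of -0.77 with HBSS (SE 0.09, limma adjusted p = 4.52e-10), a level 1.71-fold lower. With Torin it was -1.24 (SE 0.09, limma adjusted p = 5.74e-16), a level 2.36-fold lower. TFRC was higher in HBSS than in Torin by 0.47 on the log2 scale (SE 0.10, limma adjusted p = 9.46e-05), although this call was lost (0.29, adjusted p = 0.0892, limma) when the identical column was counted as a Torin library.

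In TFE3 KO cells TFRC was 371, 367 and 317 as control and 94.1, 86.4 and 83.2 with Torin. TFEB KO cells had 405, 383 and 356 as control and 174, 162 and 185 with Torin. DKO cells had 377, 402 and 361 as control and 79.5, 82.9 and 72.6 with Torin. No control library overlapped a Torin library of its genotype. Within Torin, the TFEB KO libraries overlapped those of WT, while all TFE3 KO and DKO libraries lay below them.

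The log2 fold change with Torin was -1.99 in TFE3 KO cells (SE 0.08, limma adjusted p = 1.23e-25), which is 3.96-fold lower. In TFEB KO cells it was -1.13 (SE 0.08, limma adjusted p = 3.66e-16), which is 2.19-fold lower. DKO cells had -2.26 (SE 0.08, limma adjusted p = 1.77e-27), which is 4.80-fold lower. TFRC was the only member called with a change of at least 2-fold in any of the 4 Torin comparisons, where 9.66% (WT), 11.7% (TFE3 KO), 5.02% (TFEB KO) and 11.1% (DKO) of all genes tested passed that limit.

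The test of the difference between genotypes takes the Torin response of a knockout minus that of WT cells. For TFRC it gave -0.74 in TFE3 KO (SE 0.12, limma adjusted p = 0.000157) and -1.02 in DKO (SE 0.12, limma adjusted p = 2.42e-07). In TFEB KO it gave 0.11 (95% CI -0.13 to 0.35, limma adjusted p = 0.748). These tests called 1.06% of all genes for TFE3 KO, 1.16% for TFEB KO and 0.506% for DKO, and 0.161% with at least 2-fold for DKO. TFRC was the only member called in TFE3 KO and in DKO. In TFEB KO no member was called by limma, edgeR or DESeq2, and FTH1, FTL and ACSL4 had an unadjusted p under 0.05.

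The knockouts were also set against each other, a comparison chosen after the values were seen. The TFRC response was more negative in TFE3 KO than in TFEB KO by 0.85 (SE 0.11, limma adjusted p = 6.12e-07), where 7.68% of all genes were called. It was more negative in DKO than in TFEB KO by 1.13 (SE 0.11, limma adjusted p = 1.81e-09), where 5.62% of all genes were called and 0.889% with at least 2-fold. Between DKO and TFE3 KO the difference was -0.28 (95% CI -0.51 to -0.05, limma adjusted p = 0.692), and 0.0536% of all genes were called. In that comparison no member was called by limma, edgeR or DESeq2, and TFRC had an unadjusted p under 0.05.

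The 4 differences for TFRC that passed did so in all 10 alternative fits and with each of 25 libraries left out in turn. Without 1 library, the value for TFE3 KO against WT ranged from -0.83 to -0.66 and that for DKO against WT from -1.11 to -0.94.

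**Figure D1:**
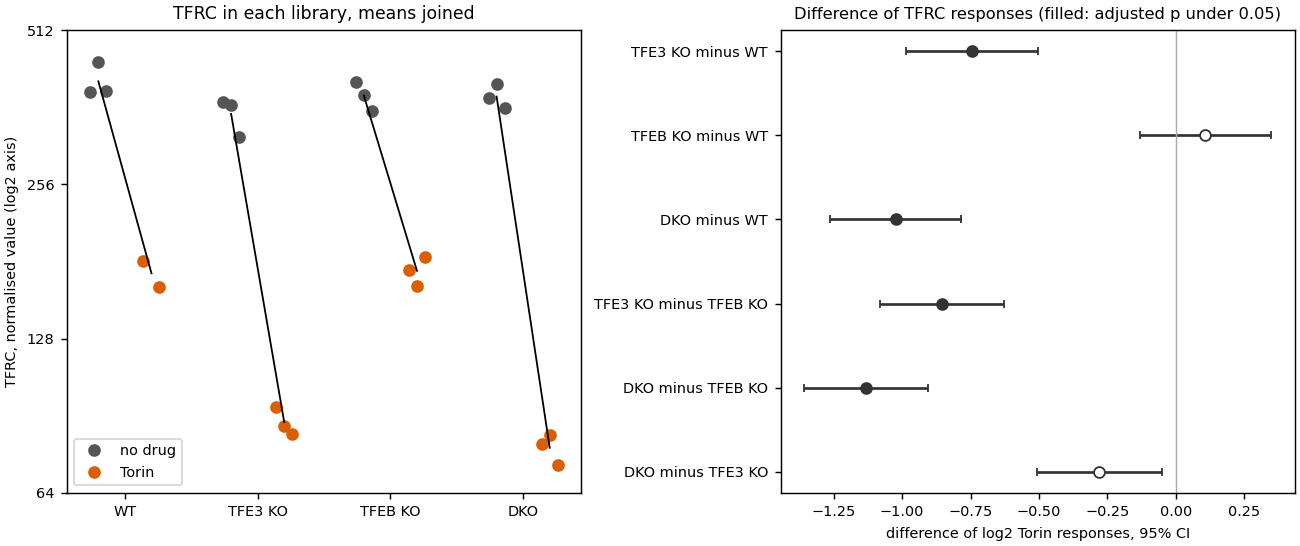
TFRC in each library (left, normalised value on a log2 axis, grey without drug and orange with Torin, a line joining the group means) and the difference between genotypes in the log2 response to Torin (right, bars are 95% confidence intervals, filled where the adjusted p was under 0.05). The control libraries of the 4 genotypes sit between 317 and 444, while Torin libraries of TFE3 KO and DKO sit between 72.6 and 94.1, below the 162 to 185 of WT and TFEB KO.

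Without drug, the TFRC level in the knockouts was set against WT untreated. The log2 difference was -0.21 in TFE3 KO (95% CI -0.37 to -0.05, limma adjusted p = 0.087), -0.09 in TFEB KO (-0.25 to 0.07, limma adjusted p = 0.497) and -0.10 in DKO (-0.26 to 0.06, limma adjusted p = 0.495). The TFE3 KO libraries lay below all WT libraries, but the difference missed the threshold. Under Torin the level was lower than in WT by -0.96 in TFE3 KO (SE 0.09, limma adjusted p = 3.30e-11) and by -1.12 in DKO (SE 0.09, limma adjusted p = 1.15e-13). The 3 comparisons without drug share the WT untreated libraries, and the 3 under Torin share the 2 WT Torin libraries.

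Ordered by group mean, TFRC ran from WT untreated (407 ± 31.9, SD, n = 3) through TFEB KO control (382 ± 24.6), DKO control (380 ± 20.9) and TFE3 KO control (352 ± 30.2) to WT HBSS (237 ± 8.12, n = 2). TFEB KO Torin (174 ± 11.5), WT Torin (172 ± 14.1, n = 2), TFE3 KO Torin (87.9 ± 5.61) and DKO Torin (78.3 ± 5.24) followed. The 4 groups without drug overlapped their neighbours in this order, as did TFEB KO Torin and WT Torin. The TFE3 KO and DKO Torin libraries did not overlap.

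**Figure D2:**
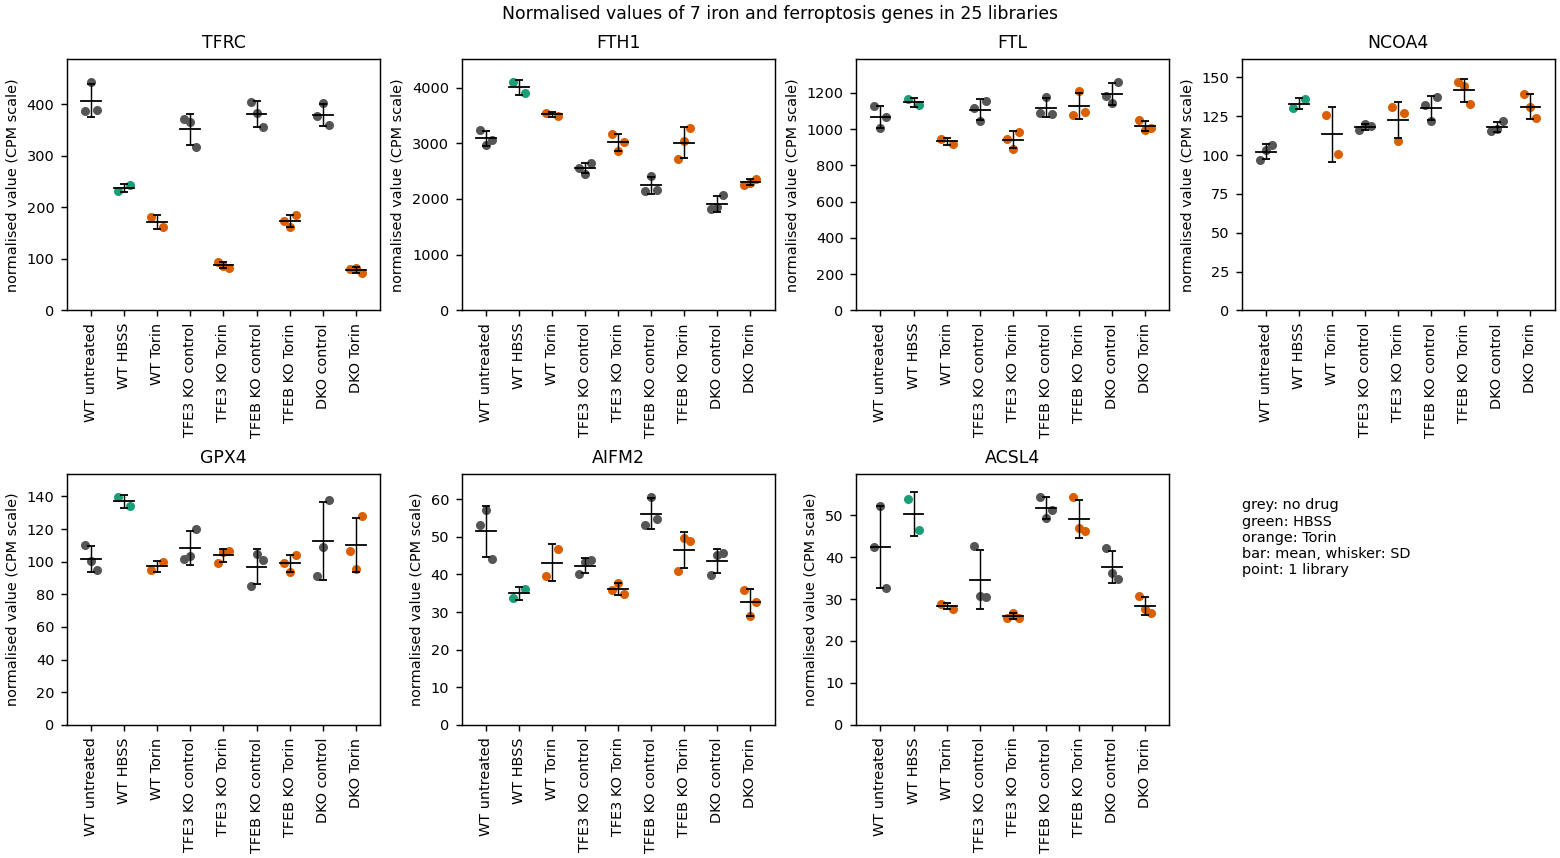
Normalised values (CPM scale, axes from 0) of the 7 genes in each of 25 libraries by group. Points are libraries, bars are means and whiskers are SD (n = 2 for WT HBSS and WT Torin, otherwise 3). TFRC lies at 317 to 444 without drug and at 72.6 to 94.1 with Torin in TFE3 KO and DKO, and FTH1 is lowest in DKO control, at 1812 to 2069.

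FTH1, the ferritin heavy chain that oxidises iron for storage, rose with HBSS and with Torin and was lower in every knockout than in WT. The order among the undrugged cells was WT, TFE3 KO, TFEB KO and DKO, and no 2 of these groups overlapped.

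FTH1 was 3233, 2973 and 3054 in WT untreated cells, 4102 and 3906 with HBSS, and 3550 and 3493 with Torin. The HBSS libraries were the highest of the series. The log2 fold change was 0.38 with HBSS (SE 0.07, limma adjusted p = 9.82e-06), a level 1.30-fold higher, and 0.19 with Torin (SE 0.07, limma adjusted p = 0.0205). The Torin call in WT cells was lost without WT untreated replicate 2 or 3 (adjusted p = 0.0692 and 0.0522, limma) and without WT Torin replicate 2 or 3 (0.118 and 0.0767). It was also lost when the 2 groups were fitted alone (0.0587).

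In TFE3 KO cells FTH1 was 2555, 2456 and 2642 as control and 3169, 2864 and 3019 with Torin. TFEB KO cells had 2150, 2410 and 2169 as control and 2713, 3047 and 3282 with Torin. DKO cells had 1812, 1855 and 2069 as control and 2253, 2293 and 2366 with Torin. Torin libraries lay above the control libraries in each of the 3 knockouts. The log2 fold change was 0.24 in TFE3 KO (limma adjusted p = 0.000877), 0.42 in TFEB KO (2.31e-07) and 0.27 in DKO (0.000234), each with SE 0.06. None of these responses differed from that of WT by the test of the difference, and the largest, 0.23 in TFEB KO, had a 95% CI of 0.05 to 0.42 (limma adjusted p = 0.223).

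Against WT untreated, FTH1 was lower by -0.27 in TFE3 KO (limma adjusted p = 0.00145), by -0.46 in TFEB KO (3.80e-07) and by -0.69 in DKO (2.27e-12), each with SE 0.06. The DKO level was 1.62-fold lower. Under Torin the differences from WT were -0.22 in TFE3 KO (limma adjusted p = 0.0274), -0.23 in TFEB KO (0.0152) and -0.61 in DKO (4.38e-09), each with SE 0.07.
The TFE3 KO call under Torin was lost without WT Torin replicate 2 or 3 (limma adjusted p = 0.182 and 0.123) and without TFE3 KO Torin replicate 2 or 3 (0.135 and 0.0608). The TFEB KO call under Torin was lost without WT Torin replicate 2 or 3 (0.113 and 0.0844, limma adjusted p) and without TFEB KO Torin replicate 1 (0.147). Without drug, FTH1 was higher in TFE3 KO than in TFEB KO by 0.19 (SE 0.06, limma adjusted p = 0.0169). This call was lost without TFEB KO control replicate 1 or 3 (0.0883 and 0.0657) or TFE3 KO control replicate 3 (0.0836), and with the identical column as a Torin library (0.0708). FTH1 was higher in HBSS than in Torin by 0.18 (limma adjusted p = 0.0372), a call lost with edgeR (0.0752), with DESeq2 (0.133), after median-of-ratios rescaling (0.0929), with the identical column as a Torin library (0.225) and without any 1 of the 4 libraries (0.0596 to 0.212).

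FTL, the ferritin light chain that nucleates the iron core, did not follow FTH1. It was 1130, 1005 and 1068 in WT untreated cells, 1167 and 1131 with HBSS, and 946 and 920 with Torin. The HBSS and untreated libraries did not overlap, but the difference of 0.11 missed the threshold (95% CI -0.03 to 0.25, limma adjusted p = 0.209). With Torin FTL fell by 0.19 on the log2 scale (SE 0.07, limma adjusted p = 0.022).
This call depended on the processing. It was lost with edgeR (adjusted p = 0.0598), DESeq2 (0.0863), rescaling (0.0847), the 2 groups fitted alone (0.0741) and the identical column as a Torin library (0.470). Leaving out WT untreated replicate 1 (limma adjusted p = 0.0887), WT Torin replicate 2 (0.0633) or WT Torin replicate 3 (0.143) also ended it.

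FTL was 1119, 1043 and 1157 in TFE3 KO control cells and 948, 893 and 986 with Torin. DKO cells had 1185, 1142 and 1260 as control and 1051, 996 and 1008 with Torin. TFEB KO cells had 1090, 1180 and 1086 as control and 1079, 1212 and 1093 with Torin, with the groups overlapping. FTL fell with Torin in TFE3 KO (-0.23, SE 0.06, limma adjusted p = 0.00175) and in DKO (-0.23, SE 0.06, limma adjusted p = 0.00176). In TFEB KO the log2 fold change was 0.01 (95% CI -0.11 to 0.14, limma adjusted p = 0.905).
No knockout passed the threshold for FTL without drug. The values were 0.05 (95% CI -0.07 to 0.18) in TFE3 KO, 0.07 (-0.06 to 0.19) in TFEB KO and 0.16 (0.04 to 0.29) in DKO. The DKO difference passed when WT untreated replicate 1 was left out (0.21, limma adjusted p = 0.029). Under Torin, FTL was higher in TFEB KO than in WT by 0.27 (SE 0.07, limma adjusted p = 0.00445), a call lost without WT Torin replicate 3 (0.0722) and with the identical column as a Torin library (0.206). In WT it was higher in HBSS than in Torin by 0.30 (SE 0.08, limma adjusted p = 0.00109), lost with that column as a Torin library (0.132).
FTH1 and FTL have processed pseudogenes, and how reads with several matches were counted was not given in the sources used here. The pseudogene FTH1P3 has a row, at 0.154 to 1.72, and did not pass in any comparison. With 1 to 11 reads per library, this row cannot show whether pseudogene reads affect FTH1.

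A ratio of 2 genes within a library depends little on how libraries were scaled, since only the added 1 is not scaled with them. The ratio is compared between groups only, since reads per transcript may differ between genes. The log2 ratio of FTL to FTH1 was -1.53 ± 0.03 (SD, n = 3) in WT untreated, -1.80 ± 0.02 (n = 2) with HBSS and -1.91 ± 0.01 (n = 2) with Torin. It was -1.21 ± 0.03 in TFE3 KO control, from -1.03 to -0.98 in the 3 TFEB KO control libraries and -0.68 ± 0.06 in DKO control. With Torin it was -1.68 ± 0.06 in TFE3 KO, -1.41 ± 0.15 in TFEB KO and -1.18 ± 0.07 in DKO.
The ratio was lower with Torin in all 4 genotypes and lower with HBSS, and it was higher in each undrugged knockout than in WT, with no overlap between libraries in any of these 8 comparisons. The exact permutation test (2-sided) gave p = 0.1 for the 6 comparisons of 3 against 3 libraries and p = 0.2 for the 2 with 2 libraries in a group, the smallest these designs allow. Adjusted over the 16 tests of both ratios, the values were 0.145 and 0.213 by exact permutation.

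The log2 ratio of TFRC to FTH1 was -2.92 ± 0.16 in WT untreated, -4.07 ± 0.10 with HBSS (n = 2) and -4.35 ± 0.10 with Torin (n = 2). With Torin it was -5.09 ± 0.07 in TFE3 KO, -4.11 ± 0.14 in TFEB KO and -4.86 ± 0.13 in DKO, from -2.86 ± 0.17, -2.55 ± 0.13 and -2.33 ± 0.17 in their controls. Libraries with and without treatment did not overlap in any genotype. The undrugged TFEB KO and DKO libraries lay above those of WT, while TFE3 KO overlapped WT with a difference of 0.06 (exact permutation p = 0.7, adjusted p = 0.7 over the 16 tests).

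**Figure D3:**
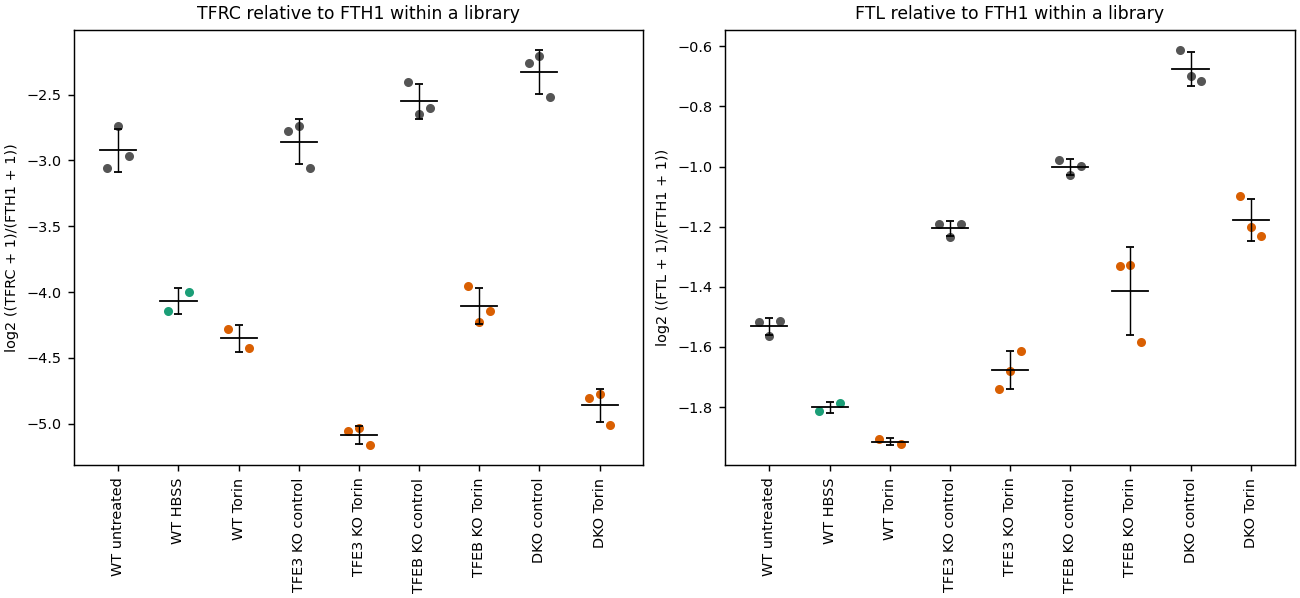
Log2 ratio of TFRC to FTH1 (left) and of FTL to FTH1 (right) within each library, after adding 1 to each value, by group. Points are libraries, bars are means and whiskers are SD. The FTL to FTH1 ratio is lower with Torin in each genotype and highest in DKO control, at -0.68.

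NCOA4 (hg38 chromosome 10, 46005088 to 46030623, minus strand), the receptor that delivers ferritin to autophagosomes, rose with HBSS and not detectably with Torin. It was 96.8, 103 and 106 in WT untreated cells, 130 and 136 with HBSS, and 126 and 101 with Torin. The HBSS libraries lay above the untreated ones and the Torin libraries overlapped them. The log2 fold change was 0.38 with HBSS (SE 0.10, limma adjusted p = 0.000831). With Torin it was 0.14 in WT (95% CI -0.05 to 0.33), 0.04 in TFE3 KO (-0.13 to 0.22), 0.12 in TFEB KO (-0.05 to 0.29) and 0.15 in DKO (-0.02 to 0.32).
The WT Torin value passed without WT Torin replicate 3 (0.30, limma adjusted p = 0.0403) and was -0.02 without replicate 2 (limma adjusted p = 0.919). The difference between HBSS and Torin of 0.24 was close to the threshold (limma adjusted p = 0.0526) and passed without WT Torin replicate 2 (0.40, limma adjusted p = 0.008), while it was 0.08 without replicate 3 (limma adjusted p = 0.639). It also passed without WT untreated replicate 1 (limma adjusted p = 0.0481) or TFE3 KO Torin replicate 2 (limma adjusted p = 0.0458), and in 3 other fits.

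In TFEB KO control cells NCOA4 was 133, 122 and 137, above WT untreated by 0.35 (SE 0.09, limma adjusted p = 0.0033). TFE3 KO control had 116 to 120 and DKO control 116 to 122, above all WT libraries too, but the differences of 0.21 and 0.21 missed the threshold (limma adjusted p = 0.119 and 0.103). Under Torin NCOA4 was higher in TFEB KO than in WT by 0.33 (SE 0.10, limma adjusted p = 0.0125), a call lost without WT Torin replicate 3 (0.17, limma adjusted p = 0.407) and with the identical column as a Torin library (0.189). The DKO difference under Torin, 0.22, passed without WT Torin replicate 2 (0.38, limma adjusted p = 0.0395) and was 0.06 without replicate 3 (limma adjusted p = 0.838). The NCOA4 differences from WT under Torin therefore rest on which of the 2 WT Torin libraries, at 126 and 101, is used. The undrugged difference in TFEB KO does not use them and ranged from 0.31 to 0.40 with a library left out.

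GPX4 (chromosome 19, 1103982 to 1106791, plus strand), the selenium enzyme that reduces lipid peroxides, rose with HBSS alone among the treatments tested. It was 110, 101 and 94.6 in WT untreated cells, 140 and 134 with HBSS, and 94.9 and 99.5 with Torin. No HBSS library overlapped the other WT groups. With HBSS GPX4 rose by 0.43 (SE 0.12, limma adjusted p = 0.00279). GPX4 was higher in HBSS than in Torin by 0.49 (SE 0.13, limma adjusted p = 0.00187), which missed the threshold with the identical column as a Torin library (0.136).
With Torin the log2 fold changes lay from -0.06 to 0.03 in the 4 genotypes, and the widest 95% CI, in WT, ran from -0.30 to 0.18. Against WT without drug the differences were 0.09 in TFE3 KO, -0.07 in TFEB KO and 0.13 in DKO (limma adjusted p = 0.703, 0.719 and 0.518). The DKO control libraries spread from 91.0 to 138, the widest range of GPX4 in a group.

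AIFM2 (chromosome 10, 70098223 to 70132934, minus strand), the coenzyme Q reductase also called FSP1, moved opposite to GPX4 with HBSS. It was 53.1, 57.2 and 44.1 in WT untreated cells, 33.8 and 36.2 with HBSS, and 39.6 and 46.7 with Torin. The HBSS libraries lay below the other WT libraries. AIFM2 fell with HBSS (-0.54, SE 0.13, limma adjusted p = 0.000489), to a level 1.45-fold lower. In DKO cells it was 39.9, 45.1 and 45.7 as control and 36.0, 29.0 and 32.7 with Torin, a fall of -0.41 (SE 0.11, limma adjusted p = 0.00232).
The Torin values of the other genotypes were negative but missed the threshold, at -0.25 in WT (95% CI -0.50 to 0.01), -0.22 in TFE3 KO (-0.45 to 0.01) and -0.27 in TFEB KO (-0.50 to -0.04). The WT value passed without WT untreated replicate 3 (-0.35, limma adjusted p = 0.0374), and the TFEB KO value without TFEB KO Torin replicate 2 (-0.32, limma adjusted p = 0.049). Without drug AIFM2 was lower in TFE3 KO (40.1 to 43.8) than in TFEB KO (53.1 to 60.7) by -0.40 (SE 0.11, limma adjusted p = 0.00655), while neither knockout passed against WT. Under Torin it was lower in DKO than in WT by -0.40 (SE 0.13, limma adjusted p = 0.0329). That call was lost without WT Torin replicate 3 (0.338), DKO Torin replicate 2 (0.152) or DKO Torin replicate 3 (0.0657), with DESeq2 (0.0512) and with the identical column as a Torin library (0.0509).
The antioxidant response core TGACNNNGC, found in 13.56% of all promoters, was in the AIFM2 window and not in those of the other 6 members searched (FTH1 was not).

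ACSL4 (chromosome X, 109624244 to 109733403, minus strand), the ligase that activates polyunsaturated fatty acids, fell with Torin in WT, TFE3 KO and DKO cells. It was 42.4, 52.3 and 32.6 in WT untreated cells, 53.8 and 46.5 with HBSS, and 28.8 and 27.7 with Torin. Torin libraries lay below all untreated ones, and HBSS libraries overlapped the untreated ones. The log2 fold change with Torin was -0.54 (SE 0.15, limma adjusted p = 0.00239), a level 1.46-fold lower. With HBSS it was 0.26 (95% CI -0.04 to 0.56, limma adjusted p = 0.15), which passed without WT untreated replicate 2 (0.42, 0.0231).
ACSL4 was higher in HBSS than in Torin by 0.80 (SE 0.16, limma adjusted p = 5.80e-05). With the identical column as a Torin library, the Torin call in WT (-0.25, limma adjusted p = 0.296) and the difference between HBSS and Torin (0.51, limma adjusted p = 0.0672) were both lost.

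TFE3 KO cells had 42.7, 30.7 and 30.4 of ACSL4 as control and 25.4, 26.7 and 25.6 with Torin. DKO cells had 42.1, 36.3 and 34.7 as control and 30.8, 27.7 and 26.6 with Torin. TFEB KO cells had 54.4, 49.3 and 51.2 as control and 54.3, 46.8 and 46.2 with Torin, with overlap. The fall with Torin was -0.39 in TFE3 KO (SE 0.13, limma adjusted p = 0.0127) and -0.40 in DKO (SE 0.13, limma adjusted p = 0.0107). These calls were lost without TFE3 KO control replicate 1 (-0.23, limma adjusted p = 0.184) and without DKO control replicate 1 (-0.32, limma adjusted p = 0.07), the library with the highest ACSL4 in each group. They were also lost with the identical column as a Torin library (0.0833 and 0.0755).
In TFEB KO the log2 fold change was -0.07 (95% CI -0.34 to 0.19), but the test of the difference from WT, 0.47, had an adjusted p of 0.262 (limma, 95% CI 0.07 to 0.87). Under Torin ACSL4 was higher in TFEB KO than in WT by 0.77 (SE 0.15, limma adjusted p = 0.000163), which missed the threshold with the identical column as a Torin library (0.0803). Without drug it was lower in TFE3 KO than in TFEB KO by -0.58 (SE 0.13, limma adjusted p = 0.000626). The undrugged differences from WT, -0.28 in TFE3 KO and 0.30 in TFEB KO, missed the threshold (limma adjusted p = 0.2 and 0.12) and passed without WT untreated replicate 3 (-0.45, 0.0351) and replicate 2 (0.46, 0.023), respectively.

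**Figure D4:**
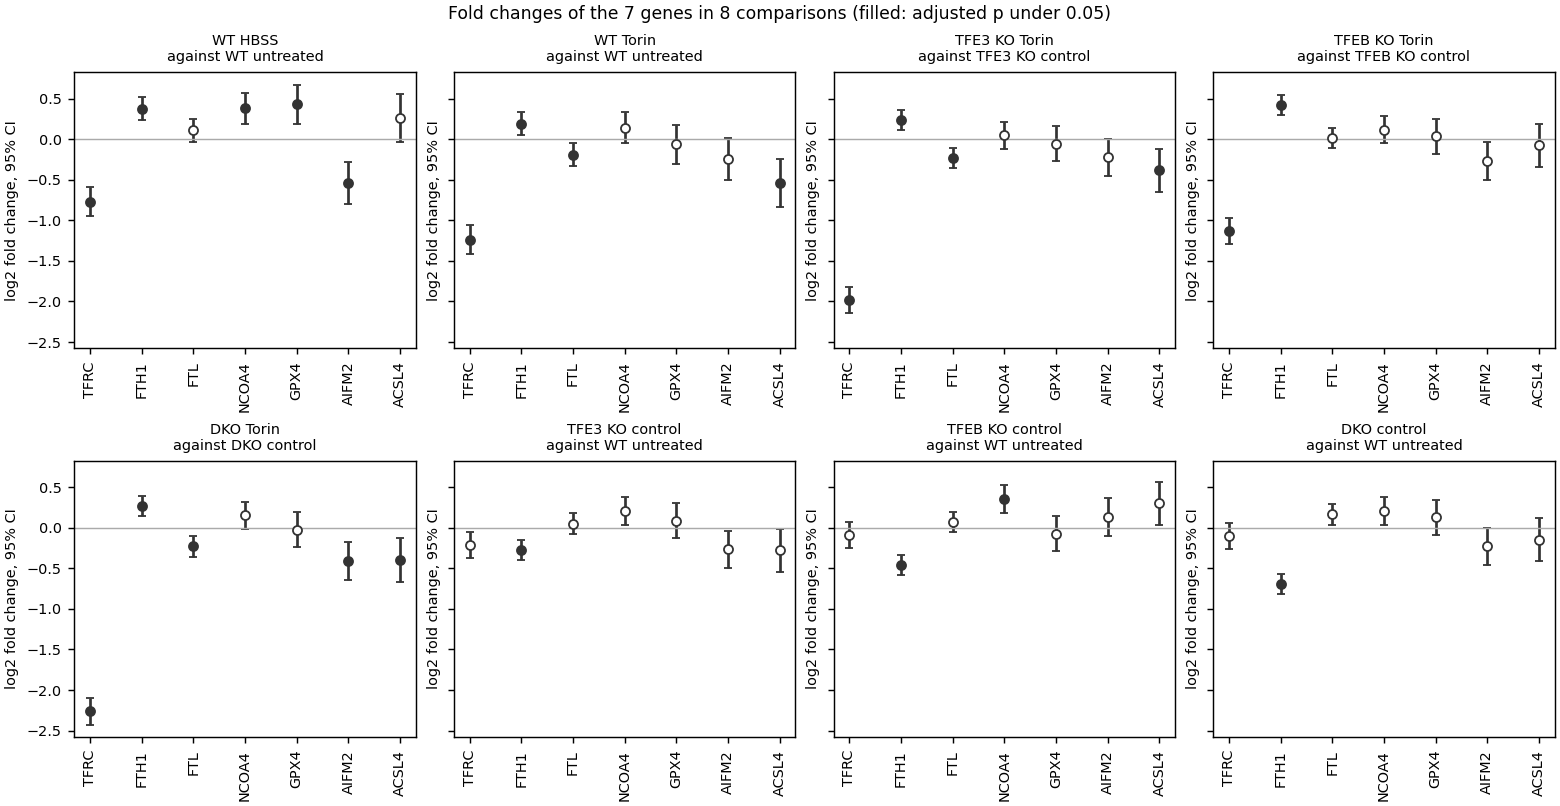
Log2 fold change of the 7 genes (limma estimate, bars are 95% confidence intervals, filled where the adjusted p was under 0.05) in 8 comparisons. TFRC is negative in all 5 treatment comparisons, from -0.77 with HBSS to -2.26 in DKO with Torin, and FTH1 is positive in those 5 and negative in the 3 knockouts without drug.

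The counts of members were read against the share of all genes that passed, which was high for the treatments. With HBSS in WT, 3 members rose and 2 fell, where 23.6% of all genes were higher and 24.7% lower. With Torin 1 rose and 3 fell in WT (all genes, 20.5% and 23.4%). In TFE3 KO cells 1 rose and 3 fell with Torin (25.4% and 26.0%). TFEB KO had 1 that rose and 1 that fell (17.4% and 21.0%), and DKO 1 and 4 (25.4% and 26.2%). Between HBSS and Torin 5 members were higher in HBSS (26.1% of all genes higher, 23.1% lower). The median log2 fold change over the 7 members was 0.26 with HBSS and -0.19, -0.22, 0.01 and -0.23 with Torin, in the order WT, TFE3 KO, TFEB KO, DKO, while over all genes it lay between -0.03 and 0.02.

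Fewer genes passed between genotypes. Without drug 1 member was lower in TFE3 KO (all genes, 3.57% higher and 5.84% lower), 1 was higher and 1 lower in TFEB KO (7.46% and 7.18%), and 1 was lower in DKO (5.64% and 7.49%). Between TFE3 KO and TFEB KO without drug, 1 member was higher and 2 were lower in TFE3 KO (14.3% and 15.6%). Under Torin 2 members were lower in TFE3 KO than in WT (3.41% and 6.23%). TFEB KO had 3 higher and 1 lower than WT under Torin (9.39% and 8.56%). DKO had 3 lower (5.03% and 7.03%), 1 of them, TFRC, by at least 2-fold (2.37% of all genes).

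Other genes of these pathways were taken from 8 lists of 142 symbols, members included, of which 120 were tested. The lists were read by counts and medians beside those of all genes, with no test of a list. For the genes named from them, group means are given with the log2 fold change in brackets, each called by limma with an SE of 0.06 to 0.30.

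Of the iron uptake and transport list, 10 of 20 genes were tested. With Torin 7 were lower in WT, 8 in TFE3 KO, 4 in TFEB KO and 7 in DKO, and none was higher. The medians were -0.73, -0.80, -0.39 and -0.79. Over all genes 23.4%, 26.0%, 21.0% and 26.2% were lower and 20.5%, 25.4%, 17.4% and 25.4% higher. With HBSS 3 rose and 3 fell (median -0.21), where 23.6% of all genes were higher and 24.7% lower. SLC11A2, which carries ferrous iron out of endosomes, rose with HBSS from 83.0 to 124 (0.57, limma adjusted p = 3.96e-05) and fell with Torin in DKO from 77.5 to 40.5 (-0.91) and in TFEB KO from 88.2 to 59.9 (-0.55). SLC39A14, a zinc and iron importer, rose with HBSS from 42.5 to 61.8 (0.54) and fell with Torin to 21.1 in WT (-0.97), from 28.3 to 12.2 in TFE3 KO (-1.16) and from 47.0 to 32.0 in TFEB KO (-0.54).
STEAP3, the reductase of endosomal iron, fell in WT from 10.8 to 5.64 with HBSS (-0.84) and to 5.29 with Torin (-0.99). In DKO it fell with Torin by -0.93. STEAP1 fell with HBSS from 7.21 to 1.66 (-1.64). In the knockouts without drug, MFI2 (melanotransferrin, now MELTF) was higher than in WT in all 3, at 330, 392 and 330 against 240 (0.46, 0.70 and 0.45, limma adjusted p = 0.000161, 6.93e-08 and 0.000147). The list had 2 genes higher and 1 lower in TFE3 KO, 1 higher in TFEB KO and 2 higher in DKO. Over all genes 3.57% to 7.46% were higher and 5.84% to 7.49% lower in these comparisons.

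Of the ferritin and cytosolic iron list, 7 of 10 genes were tested. It had 3 higher with HBSS, 2 higher and 3 lower with Torin in WT, TFE3 KO and DKO, and 2 higher and 1 lower in TFEB KO. Its medians were 0.27 with HBSS and 0.05 to 0.15 with Torin. Over all genes 23.6% were higher and 24.7% lower with HBSS. With Torin 17.4% to 25.4% of all genes were higher and 21.0% to 26.2% lower. The iron chaperones PCBP1 and PCBP2 moved apart with Torin. PCBP2 rose in WT from 362 to 439 (0.28, limma adjusted p = 0.0011) and in the knockouts by 0.29, 0.34 and 0.37, while PCBP1 fell in WT from 452 to 378 (-0.25, limma adjusted p = 0.0136) and in the knockouts by -0.40, -0.21 and -0.35. GLRX3, a cytosolic iron-sulphur chaperone, fell with Torin in WT from 109 to 75.2 (-0.52), in TFE3 KO by -0.40 and in DKO by -0.42. Without drug 1 gene was higher and 1 lower in TFE3 KO, 1 and 2 in TFEB KO, and 1 lower in DKO. Over all genes 3.57% to 7.46% were higher and 5.84% to 7.49% lower in these comparisons.

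Of the iron regulatory list, all 6 genes were tested. IREB2, an iron regulatory protein, rose with HBSS from 109 to 137 (0.33, limma adjusted p = 0.00234), and EPAS1 from 25.7 to 35.8 (0.47). With Torin HIF1A, a hypoxia factor, fell in WT from 68.5 to 41.5 (-0.71, limma adjusted p = 1.64e-06) and by -0.83 in TFE3 KO, -0.73 in TFEB KO and -0.72 in DKO. The list had 2 higher with HBSS, 1 higher and 1 lower with Torin in WT, TFE3 KO and DKO, and 2 lower in TFEB KO, with medians of 0.15 with HBSS and -0.18 to 0.00 with Torin. Over all genes 23.6% were higher and 24.7% lower with HBSS, and 17.4% to 25.4% and 21.0% to 26.2% with Torin. Without drug 2 of the list were higher in TFEB KO. None of the list was called by limma, edgeR or DESeq2 in TFE3 KO or DKO, where 1 and 0 had an unadjusted p under 0.05. In the undrugged comparisons 3.57% to 7.46% of all genes were higher and 5.84% to 7.49% lower.

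Of the heme list, all 17 genes were tested. With HBSS 2 rose and 10 fell (median -0.46, all genes -0.03), where 23.6% of all genes were higher and 24.7% lower. HMOX1, which opens the heme ring and frees its iron, fell with HBSS from 15.1 to 4.21 (-1.64, limma adjusted p = 1.89e-08) and with Torin in TFE3 KO from 11.6 to 4.56 (-1.17), in TFEB KO from 14.7 to 6.91 (-0.98) and in DKO from 10.6 to 6.16 (-0.73). HMOX2, its constitutive relative, fell with Torin in WT from 122 to 73.4 (-0.72) and in the 3 knockouts by -0.77, -0.85 and -0.77. PPOX, of heme synthesis, rose with Torin in WT from 8.76 to 16.6 (0.85, limma adjusted p = 0.000782). In TFE3 KO, TFEB KO and DKO it rose by 0.77, 0.57 and 0.90. With Torin the list had 3 higher and 6 lower in WT, 5 and 6 in TFE3 KO, 2 and 7 in TFEB KO, and 4 and 6 in DKO, with medians from -0.26 to -0.15. Over all genes 17.4% to 25.4% were higher and 21.0% to 26.2% lower with Torin. Without drug 1 of the list was higher in TFE3 KO, 1 lower in TFEB KO and 1 lower in DKO. In the undrugged comparisons 3.57% to 7.46% of all genes were higher and 5.84% to 7.49% lower.

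All 28 genes of the list of mitochondrial iron and iron-sulphur clusters were tested. With Torin 11 fell in WT, 14 in TFE3 KO, 11 in TFEB KO and 16 in DKO, against 4, 3, 3 and 2 that rose. The medians were -0.23, -0.21, -0.17 and -0.36, and of all genes 23.4%, 26.0%, 21.0% and 26.2% were lower in these comparisons. The share of all genes that were higher was 17.4% to 25.4%. CISD1, an iron-sulphur protein of the outer mitochondrial membrane, fell in WT from 158 to 73.7 (-1.09, limma adjusted p = 1.75e-13), and CISD2 from 89.0 to 40.8 (-1.10). In TFE3 KO CISD1 and CISD2 fell with Torin by -0.97 and -1.09. ISCU, the scaffold of cluster assembly, rose with HBSS from 36.8 (by 0.79, limma adjusted p = 4.51e-06), where 6 genes rose and 7 fell (median -0.11). With HBSS 23.6% of all genes were higher and 24.7% lower. Without drug 2 of the list were higher in TFE3 KO, 4 lower in TFEB KO, and 3 higher and 1 lower in DKO. In the undrugged comparisons 3.57% to 7.46% of all genes were higher and 5.84% to 7.49% lower.

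Of the lipid peroxidation list, 18 of 24 genes were tested. SAT1, which acetylates polyamines, rose in all 5 treatment comparisons, from 331 to 1149 with HBSS (1.79, limma adjusted p = 4.63e-25) and to 996 with Torin (1.59) in WT, and with Torin by 1.75 in TFE3 KO, 1.27 in TFEB KO and 1.92 in DKO. CHAC1, which degrades glutathione, rose with HBSS from 8.15 to 101 (3.50, limma adjusted p = 2.23e-16). LPCAT3, which places polyunsaturated chains in phospholipids, fell with HBSS from 21.2 to 10.6 (-0.94) and with Torin in TFE3 KO from 26.1 to 10.8 (-1.22) and in DKO from 29.4 to 13.2 (-1.11). POR, an electron donor in lipid peroxidation, fell with Torin in WT from 45.4 to 25.5 (-0.81), in TFE3 KO by -0.84 and in TFEB KO by -0.94. The list had 5 higher and 2 lower with HBSS, and with Torin 2 and 9 in WT, 3 and 10 in TFE3 KO, 4 and 6 in TFEB KO, and 2 and 9 in DKO. The medians were 0.06 with HBSS and -0.24, -0.39, -0.14 and -0.39 with Torin in that order. Over all genes 23.6% were higher and 24.7% lower with HBSS. With Torin 17.4% to 25.4% of all genes were higher and 21.0% to 26.2% lower. Without drug the list had 2 and 3 in TFE3 KO, 0 and 2 in TFEB KO, and 1 and 2 in DKO. In the undrugged comparisons 3.57% to 7.46% of all genes were higher and 5.84% to 7.49% lower.

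Of the ferroptosis defence list, 26 of 27 genes were tested, and under Torin nearly all called genes were lower. With Torin 21.0% to 26.2% of all genes were lower and 17.4% to 25.4% higher. In WT 15 fell and none rose (median -0.37, all genes 0.00), in TFE3 KO 18 fell and 1 rose (-0.46), in TFEB KO 10 fell and none rose (-0.27), and in DKO 15 fell and none rose (-0.41). DHCR7, which consumes the antioxidant sterol 7-dehydrocholesterol, fell in WT from 65.7 to 16.3 (-1.95, limma adjusted p = 1.98e-14). In TFE3 KO, TFEB KO and DKO it fell with Torin by -1.79, -1.49 and -1.61. GCLM, a subunit of the first enzyme of glutathione synthesis, fell in WT from 115 to 52.4 (-1.13, limma adjusted p = 3.06e-10). With Torin GCLM fell by -1.20 in TFE3 KO and by -1.36 in DKO. DHCR7 is in this list although its known action lowers an antioxidant sterol.
With HBSS 9 rose and 10 fell (median -0.28), where 23.6% of all genes were higher and 24.7% lower. SLC3A2, the heavy chain of the cystine importer, rose from 460 to 949 (1.04, limma adjusted p = 3.17e-15), and TXNRD1, a thioredoxin reductase, from 99.4 to 197 (0.98). MBOAT2 fell from 32.1 (by -0.87, limma adjusted p = 6.26e-06). Without drug 10 of the list were lower in TFE3 KO, 6 lower and 1 higher in TFEB KO, and 10 lower in DKO. The list medians were -0.27, -0.05 and -0.20 in that order. Over all genes 5.84%, 7.18% and 7.49% were lower and 3.57%, 7.46% and 5.64% higher. GCLM was lower than in WT in TFE3 KO (63.2, -0.85, limma adjusted p = 1.43e-07) and in DKO (-0.83, limma adjusted p = 2.02e-07), and SLC7A11, the cystine importer's light chain, was 54.5 in TFE3 KO against 97.6 in WT (-0.82). NQO1 was 327 in TFEB KO against 514 in WT (-0.65).

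Of the selenocysteine list, which serves the making of GPX4, 8 of 10 genes were tested. LRP8, a receptor for selenoprotein P, fell with HBSS from 86.9 to 46.3 (-0.88, limma adjusted p = 3.60e-07) and with Torin in WT to 39.7 (-1.10), in TFE3 KO from 72.0 to 18.6 (-1.90), in TFEB KO from 87.2 to 44.4 (-0.96) and in DKO from 59.6 to 21.5 (-1.42). SEPSECS, the last enzyme of selenocysteine synthesis on its tRNA, rose with Torin in WT from 2.49 to 6.83 (1.23) and by 1.02, 0.95 and 0.84 in the knockouts. The list had 2 higher and 3 lower with HBSS, and with Torin 1 and 2 in WT, 2 and 2 in TFE3 KO, 4 and 1 in TFEB KO, and 2 and 2 in DKO, with medians of 0.10 with HBSS and 0.11 to 0.25 with Torin. Over all genes 23.6% were higher and 24.7% lower with HBSS, and 17.4% to 25.4% and 21.0% to 26.2% with Torin. Without drug 1 of the list was higher and 1 lower in TFEB KO and likewise in DKO. In TFE3 KO none was called by limma, edgeR or DESeq2, and 2 had an unadjusted p under 0.05. In the undrugged comparisons 3.57% to 7.46% of all genes were higher and 5.84% to 7.49% lower.

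**Figure D5:**
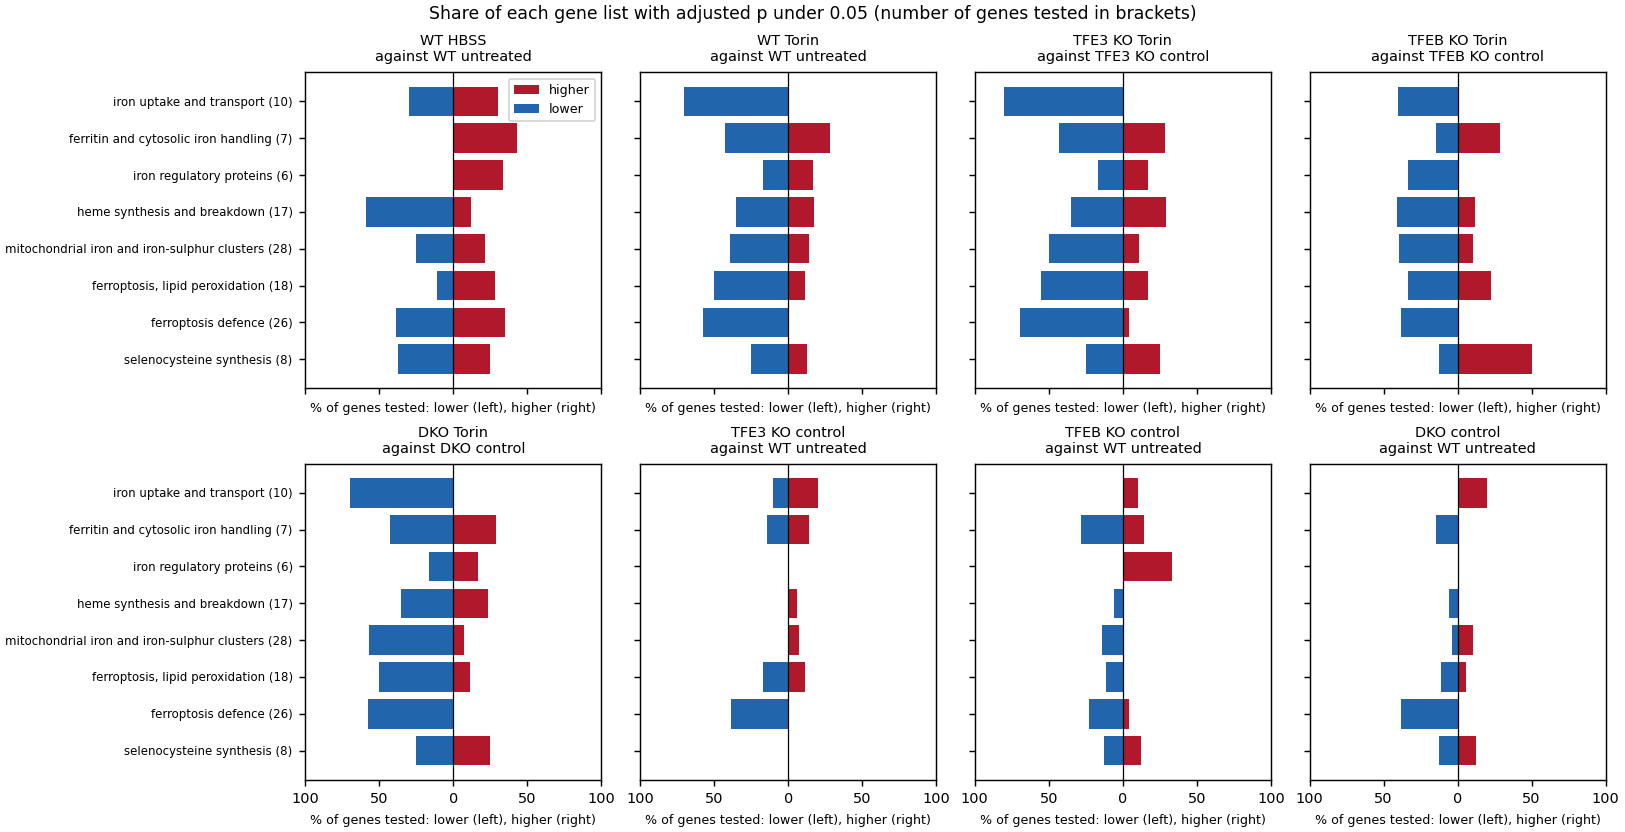
Percent of the genes tested in each of 8 lists that were lower (left of 0, blue) or higher (right of 0, red) at an adjusted p under 0.05, in 8 comparisons, with the number of genes tested in brackets. In the 4 Torin comparisons the iron uptake and ferroptosis defence lists lie mostly on the lower side. In TFE3 KO 8 of 10 and 18 of 26 genes were lower, where 26.0% of all genes were.

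The likeness of other genes to each member was measured as Pearson r over the 9 group means of log2(value + 1) among 8982 genes, a description over points that share libraries. Genes near to TFRC were NPLOC4 (r = 0.989) and MYBL2 (0.987). FTH1 was nearest to KATNA1 (0.956), LINC00518 (0.942) and KIF13A (0.935), and FTL to RWDD4 (0.976), USP38 (0.947) and C18orf25 (0.944). NCOA4 had the weakest likeness, to KIF21A (0.882), JAKMIP2 (0.877) and RELB (0.865). GPX4 was nearest to CD46 (0.967), TIAL1 (0.965) and SNHG21 (0.963), AIFM2 to PIGX (0.951), PIP4K2C (0.944) and PRDM4 (0.936), and ACSL4 to CSNK1A1 (0.982), RNF11 (0.976) and DENND1B (0.974). Among the members themselves, r ran from -0.61 between GPX4 and AIFM2 to 0.78 between FTL and ACSL4, and the 2 ferritin chains had r = -0.35.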

How the data were processed

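Per the labels, polyadenylated RNA of 501mel cells was made into QuantSeq Forward libraries, with FastQC 0.11.9, cutadapt 2.10, STAR 2.7.8a, hg38 and edgeR named in the submitters' processing notes. The authors deposited a signal per gene symbol, which is a CPM scaled by a factor per library. The counter, annotation, scaling method and gene filter were not given in the sources used here. All values in each column were whole multiples of 1 step (100%, within 0.01 of a read), so reads were recovered by division. Floors of 3 reads cover counting error only, since reads are not independent molecules.

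The 13052 genes that reached a value of 1 in 3 or more libraries were fitted as log2(value + 1) with limma 3.58.1 (lmFit, eBayes with trend and robust; R 4.3.3), with a mean for each of 9 groups over 25 libraries. The 16 planned comparisons and 3 comparisons chosen after seeing the data were contrasts of this fit, 2-sided and adjusted by Benjamini-Hochberg. The fit was tested on simulated data. Ratios used exact permutation tests in scipy 1.17.1. Alternatives were another pseudocount (0.1), no filter, a minimum of 5, median-of-ratios rescaling, edgeR 4.0.16 and DESeq2 1.42.0 on recovered reads, a replicate block, the compared groups alone, the identical column kept in either group, and each library left out.

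The members and lists were chosen with earlier results of these data known. Named genes were the members, TFE3, TFEB and MITF, and for each list and comparison drawn from up to 2 called genes at each end of the fold changes with a mean of at least 5 in the higher group, members excepted. For likeness, the 3 genes with the highest r were named, out of genes whose mean was 5 or more and whose range was 0.5 or more (log2). Positions are from GENCODE on hg38 and promoters from RefSeq. List genes without a row were not analysed here. Some genes that these rules name are not reported here.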

Additional observations from a re-analysis of the deposited data

Results flagged for a closer look

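The response of TFRC to Torin differed between genotypes by a test of the difference itself, and 4 such values are given here. Against WT the difference of log2 responses was -0.74 in TFE3 KO (95% CI -0.99 to -0.50) and -1.02 in DKO (95% CI -1.26 to -0.78). Against TFEB KO it was -0.85 in TFE3 KO (95% CI -1.08 to -0.63) and -1.13 in DKO (95% CI -1.36 to -0.91), in comparisons chosen after seeing the data. Each genotype is 1 clone, so a difference between clones cannot be told apart from the edit. Groups of 2 or 3 libraries were too small to look for a single library far from its group.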

How the results depend on the processing

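Counts of called members among the 7 tested moved by over 1.5 times with 4 choices. With the identical column as a WT Torin library, the count fell to 2 for WT Torin (4 in the main analysis), 0 for HBSS against Torin (5) and 1 for TFEB KO against WT under Torin (4). With the compared libraries alone it was 2 for WT Torin, and with DESeq2 it was 2 for the Torin response of TFE3 KO minus TFEB KO (1). Without 1 library, it ranged from 2 to 4 for WT Torin, from 1 to 2 for TFE3 KO and for DKO against WT without drug, and, under Torin against WT, from 1 to 2 for TFE3 KO, from 1 to 4 for TFEB KO and from 2 to 4 for DKO (3). It ranged from 4 to 6 for HBSS against Torin and from 2 to 3 between the single knockouts without drug (3), and in other comparisons moved by at most 1. Smaller moves included 3 for WT Torin with edgeR, DESeq2 or rescaling, and 4 for HBSS against Torin with each of these. No value changed sign across the threshold. As a WT HBSS library, the identical column left 132 values of single members on their side of the threshold, and 1 gained it. As a WT Torin library it left 119 on their side, and 14 lost it. In the members the values of this column lay nearer the means of WT HBSS, as given under other observations. Of 3325 values of single members with a library left out, 3286 kept their side of the threshold, 28 lost it and 11 gained it. Replicate numbers did not pair the libraries (correlations of deviations -0.192 to 0.143, over 0.1 in 2 of 32), and a replicate block left all counts as they were, for example 5 for HBSS and 4 for WT Torin. Rescaling moved the median of all genes by at most 0.04 (log2).

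Over all genes, the identical column as a WT Torin library moved counts most. Calls became 800 (1713 before) for DKO, 484 (1228) for TFE3 KO and 765 (1911) for TFEB KO against WT without drug, 2484 (3907) between the single knockouts, and 2694 (6416) for HBSS against Torin. Under Torin they became 2599 (1574), 1948 (1258) and 1489 (2343) for DKO, TFE3 KO and TFEB KO. Differences of responses became 21 (66) for DKO, 24 (139) for TFE3 KO and 4 (151) for TFEB KO against WT, 249 (1003) for TFE3 KO and 95 (734) for DKO against TFEB KO, and 1 (7) between DKO and TFE3 KO, where DESeq2 called 16. With the compared libraries alone, DKO against WT had 28. At this depth each member had at least 117 reads in every library. What limited the comparisons was not tested.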

Other observations

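The column labelled both WT HBSS replicate 3 and WT Torin replicate 1 is in no group above. In it TFRC was 246, FTH1 3895, FTL 1172, NCOA4 143, GPX4 140, AIFM2 37.9 and ACSL4 52.5. The WT HBSS means in the same order were 237, 4004, 1149, 133, 137, 35.0 and 50.2. Those of WT Torin were 172, 3521, 933, 113, 97.2, 43.15 and 28.3. Each value of the column lay nearer the WT HBSS mean than the WT Torin mean. Which label is right was not tested.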
